A study of Mus musculus with 6 samples.

Results

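A set of 10 genes of hepatic stellate cell activation and platelet-derived growth factor (PDGF) signalling was followed in livers of mice lacking NEK7 in hepatocytes. They were chosen by symbol: the receptors Pdgfra and Pdgfrb, the ligands Pdgfa and Pdgfb, the cytoskeletal genes Des, Acta2, Tagln and Vim, and Reln and Ngfr. They made up 10 of the 17975 genes of the table, and all 10 were among the 13805 genes with enough reads to be tested. Stellate cells are the vitamin A-storing pericytes of the liver sinusoid. In injured liver they can turn into contractile myofibroblasts that make collagen, and PDGF, acting through its paired tyrosine kinase receptors, is a well-known mitogen for them. Desmin, reelin and the neurotrophin receptor p75 (Ngfr) are textbook stellate cell genes, whereas smooth muscle actin (Acta2) and transgelin (Tagln) are textbook myofibroblast genes.

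RNA was sequenced from the livers of 3 Hom mice, which were NEK7 fl/fl-Alb-Cre+, and of 3 wild-type (WT) mice, 1 liver per mouse. The Alb promoter drives Cre in hepatocytes, whereas stellate cells do not make albumin. The labels name no treatment. The study gives a general age range for its mice and used both sexes among its knock-out mice, but the age and sex of each sequenced mouse, and whether the WT mice carried a floxed allele or Cre, were not given in the sources used here. For the sex of single animals the study points to its Source Data and Supplementary Information, and the Source Data were not read here.

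The libraries held 19349418 to 19730236 estimated read counts each. The targeted gene Nek7 was counted 1127, 1077 and 1036 times in the WT livers and 310, 439 and 387 times in the Hom livers, and it was 3.97-fold lower in Hom. Nek7 reads were thus fewer, but not gone, in whole Hom liver. Hom 1 held 0 counts of the Y-linked genes Ddx3y and Kdm5d, against 630 to 1125 and 243 to 382 in the other 5 livers, while Uty, also Y-linked, had 149 counts there and 464 to 725 in the others. The labels give no sex. WT 3 stood apart by 521 summed counts of 12 skeletal muscle markers and 2659 counts of the keratin gene Krt14, against 24 to 213 and 103 to 784 in the others. Hom 1 stood apart by 438 summed counts of 3 mesothelial markers, against 9 to 125 in the others. The calls were therefore also made without WT 3 and Hom 1, a choice that followed from these counts, and the p-values measure the spread between these 6 livers. When whole libraries were compared in pairs, however, WT 1 was the WT liver that differed most from the others of its group.

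Of the 10 genes, 7 rose in Hom livers and 2 fell (edgeR quasi-likelihood test, Benjamini-Hochberg adjusted p under 0.05). Pdgfb, Pdgfra, Pdgfrb, Pdgfa, Tagln, Vim and Acta2 rose, with log2 fold changes (log2FC, Hom against WT) from 1.30 to 2.46 and a median of 1.56. Reln and Ngfr fell by 1.55 and 1.48 on the log2 scale. Des, the remaining gene, had a log2FC of 0.42 and did not pass the test. Without WT 3 and Hom 1, the 7 and the 2 genes were called again, and Des was not (log2FC 0.35, adjusted p = 0.148). Among all tested genes, 21.5% were called higher and 20.1% lower, and the median log2FC was -0.0018. With scaling by library size alone that median moved to 0.45, and the calls over all genes went from 2974 higher and 2780 lower to 6574 higher and 642 lower, while the members' calls became 8 higher and 2 lower.

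In every member the 3 Hom livers lay on one side of the 3 WT livers, above them in 8 genes and below them in 2. The same held, above, for 28.7% of all tested genes and, below, for 27.0%. With 3 livers against 3, the exact two-sided permutation test cannot go below p = 0.1, and it gave 0.1 for each of the 10 genes. In bulk liver RNA, more cells of a type and more RNA per cell cannot be told apart.

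**Figure D1:**
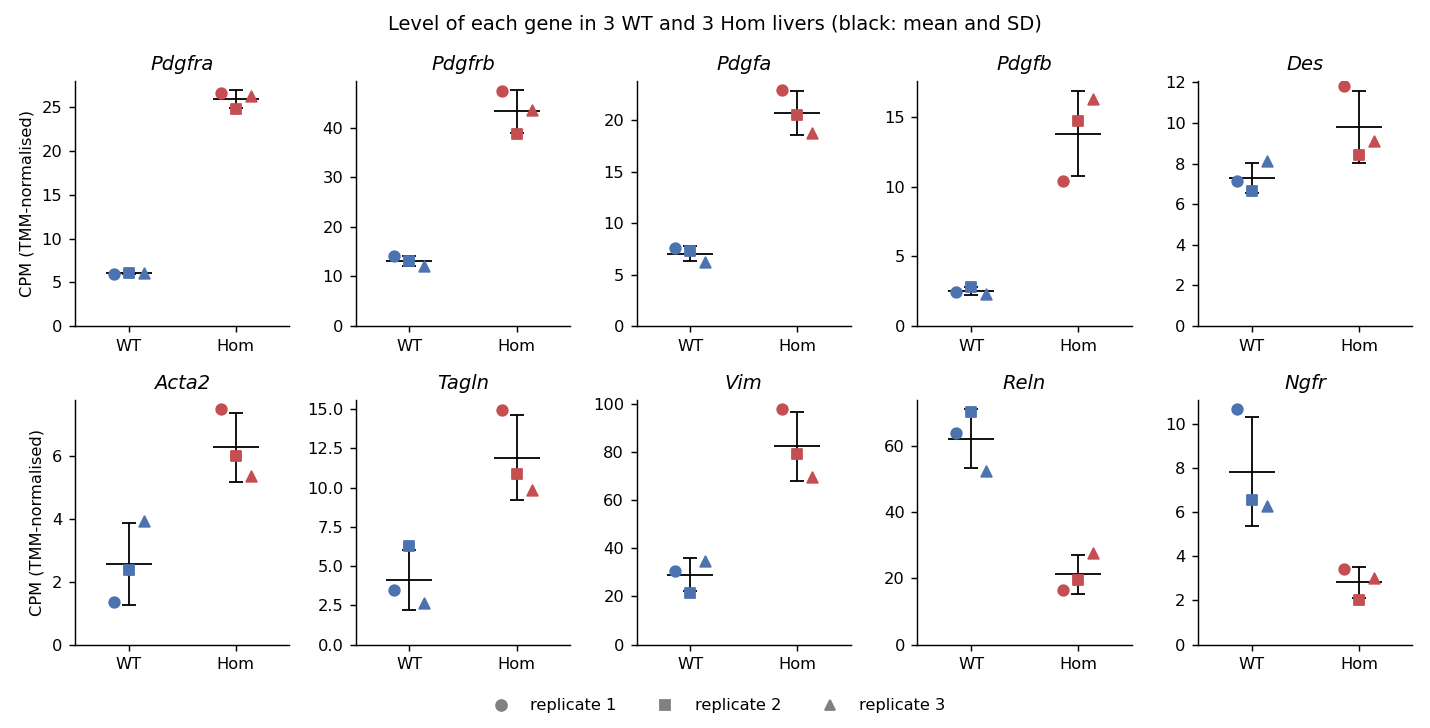
Level in TMM-scaled CPM of the 10 genes in each WT and Hom liver, 1 point per liver with the group mean and SD. The Hom points lie above the WT points in 8 genes and below them in Reln and Ngfr.

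Pdgfra and Pdgfrb, the receptor genes, were among the members with the least spread between livers. Pdgfra, the receptor alpha chain, which binds both PDGF-A and PDGF-B, had 106, 94 and 99 counts in WT livers and 572, 601 and 611 in Hom livers. Every Hom count was thus several times every WT count. In CPM (counts scaled to a common library size with TMM factors, mean ± SD, n = 3), it was at 6.01 ± 0.0834 in WT and 25.9 ± 1.02 in Hom, a log2FC of 2.11 (SE 0.092, edgeR adjusted p = 0.000107). Only 677 of the tested genes, 4.90%, had a higher log2FC.

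Pdgfrb, the beta chain and the receptor best known from pericytes and stellate cells, had 252, 204 and 198 counts in WT and 1017, 941 and 1010 in Hom. The groups lay far apart, and the highest WT count was in WT 1. Its mean CPM went from 13.1 ± 0.954 in WT to 43.3 ± 4.34 in Hom, with a log2FC of 1.72 (SE 0.11, edgeR adjusted p = 0.000215). The count ratio of Pdgfrb to Pdgfra within a liver, which no library scaling touches, was 2.37, 2.16 and 2.00 in WT and 1.78, 1.57 and 1.65 in Hom. Pdgfrb thus had more reads than Pdgfra in each liver, by less in Hom. The mean log2 ratio was lower by 0.38 in Hom, with no overlap (exact permutation p = 0.1, the smallest possible).

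The ligand genes also rose. Pdgfa, which encodes the A chain, had 136, 113 and 101 counts in WT and 492, 497 and 434 in Hom. Its mean CPM was 7.02 ± 0.723 in WT and 20.7 ± 2.14 in Hom, with a log2FC of 1.56 (SE 0.13, edgeR adjusted p = 0.000481). Pdgfb encodes the B chain, the ligand that activates the beta receptor most strongly. It had 44, 44 and 37 counts in WT and 223, 358 and 378 in Hom, with Hom 1 the lowest of its group. Mean CPM was 2.52 ± 0.279 in WT and 13.8 ± 3.05 in Hom. Its log2FC of 2.46 (SE 0.21, edgeR adjusted p = 0.000497), a 5.49-fold difference, was the largest rise among the members, and 471 of all tested genes (3.41%) had a higher one.

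Pdgfb had a larger share of the ligand reads in each Hom liver. Within each liver, the count ratio of Pdgfb to Pdgfa was 0.326, 0.392 and 0.370 in WT and 0.454, 0.721 and 0.871 in Hom. No Hom ratio lay within the WT range, and Hom 1 was the nearest to it. The mean log2 ratio was higher by 0.86 in Hom (exact permutation p = 0.1), and by 0.66 to 1.13 when any 1 liver was left out.

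**Figure D2:**
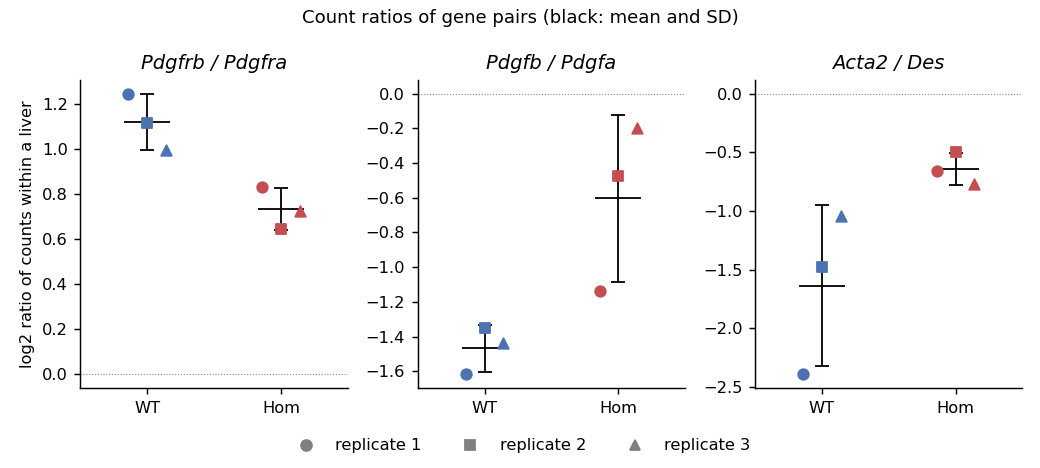
Within-liver count ratios (log2 scale, mean and SD in black) of Pdgfrb to Pdgfra, Pdgfb to Pdgfa and Acta2 to Des in each WT and Hom liver. The Hom ratios lie below the WT ratios for the receptors and above them for the ligands and for Acta2 to Des.

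Of 9 further genes for PDGF ligands, PDGF-related proteins and ligand-processing proteases, 3 rose and 3 fell, with a median log2FC of 0.36. The shares over all tested genes were 21.5% higher and 20.1% lower. Pdgfd, a ligand of the beta receptor, went from 1.65 to 8.75 mean CPM (log2FC 2.40, edgeR adjusted p = 0.00161). Plat and Plau, the plasminogen activators, which can cut latent PDGF-C and PDGF-D respectively, had a log2FC of 4.00 (adjusted p = 0.000183) and 1.91 (adjusted p = 0.00249). Pdgfc was at 5.89 and 11.9 mean CPM and did not pass (log2FC 1.01, adjusted p = 0.0522). It did pass in 6 of 13 alternative settings, and without WT 3 and Hom 1 (log2FC 1.12, edgeR adjusted p = 0.0227). The receptor-like gene Pdgfrl (0.31, adjusted p = 0.748) and the convertase gene Pcsk5 (0.36, adjusted p = 0.0621) did not pass either. Pdgfrl had 53, 5 and 12 counts in WT and 43, 47 and 26 in Hom. Its log2FC went from -0.14 to 1.65 over the alternative settings, and it passed in 1 of 12. Pcsk5 passed in 3 of 13. The convertase genes Furin and Pcsk6, whose products process PDGF chains among many other substrates, fell by 0.49 and 0.74 on the log2 scale (adjusted p = 0.0179 and 0.00803). Nrp1, a co-receptor best known from endothelium, fell by 0.74 (adjusted p = 0.00140). With library size alone the list read 5 higher and 0 lower, with a median of 0.82. It read 4 higher and 3 lower without WT 3 and Hom 1, and without WT 1 its median was 1.29.

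Downstream of the receptors, 38 signalling genes had a median log2FC of 0.03, with 8 higher and 7 lower. These calls were about as frequent as over all tested genes, where 21.5% were higher and 20.1% lower. Src, a kinase that docks on the activated receptors, rose from 3.26 to 12.1 mean CPM (log2FC 1.89, edgeR adjusted p = 0.00144). Mapk3, a MAP kinase gene, and Pik3r3, a regulatory subunit of PI3-kinase, rose by 0.77 and 1.09 on the log2 scale (adjusted p = 0.00160 and 0.00607). Map2k2 and Sos1 fell by 0.62 and 0.50 (adjusted p = 0.00298 and 0.00597). With library size alone the list read 21 higher and 0 lower, with a median of 0.48. Its split was 5 higher and 4 lower without WT 3 and Hom 1.

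Acta2, the marker most used for myofibroblasts, encodes smooth muscle alpha actin. The 250 bases before its RefSeq start (GRCm38.p6, chr19:34255374-34255623, minus strand) are shown because genes of this class are known to be driven through CArG boxes, the serum response factor element. The capitals mark 2 CArG-like stretches with 1 G or C inside, starting 84 and 34 bases before the start. The window of Vim (chr2:13574061-13574310, plus strand) is shown beside it, with its TATAAA, 32 bases before the start, in capitals. Those of Des (chr1:75360042-75360291, plus strand) and Reln (chr5:22344706-22344955, minus strand), a gene that was not called and a gene that fell, hold neither motif. The windows of Pdgfra and Pdgfa, which rose, and of Ngfr, which fell, are not shown and hold neither motif as well. The motifs thus did not go with the direction of change among the members.
Acta2: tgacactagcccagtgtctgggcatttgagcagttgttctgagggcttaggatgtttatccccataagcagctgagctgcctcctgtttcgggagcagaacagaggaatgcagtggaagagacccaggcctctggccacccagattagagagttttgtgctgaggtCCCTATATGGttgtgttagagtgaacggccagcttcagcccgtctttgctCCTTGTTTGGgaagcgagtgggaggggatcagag
Vim: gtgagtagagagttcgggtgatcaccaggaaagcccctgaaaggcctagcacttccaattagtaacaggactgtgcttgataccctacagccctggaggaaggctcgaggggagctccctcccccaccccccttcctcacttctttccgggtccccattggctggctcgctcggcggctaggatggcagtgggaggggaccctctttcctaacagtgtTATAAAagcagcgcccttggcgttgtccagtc
Des: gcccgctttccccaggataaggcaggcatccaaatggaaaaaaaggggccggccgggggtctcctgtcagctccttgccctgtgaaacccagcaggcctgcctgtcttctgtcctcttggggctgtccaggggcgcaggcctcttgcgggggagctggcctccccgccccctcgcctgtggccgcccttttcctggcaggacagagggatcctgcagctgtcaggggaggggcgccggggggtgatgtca
Reln: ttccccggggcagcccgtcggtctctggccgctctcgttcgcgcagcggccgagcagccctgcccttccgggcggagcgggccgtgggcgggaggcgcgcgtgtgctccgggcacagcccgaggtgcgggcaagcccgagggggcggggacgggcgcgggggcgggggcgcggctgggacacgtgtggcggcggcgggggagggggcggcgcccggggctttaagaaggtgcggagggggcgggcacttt
The form with up to 1 G or C inside was searched after the letters had been seen. On both strands, it was found in 8.59% of 32851 windows of all genes, the strict CArG box in 1.47% and TATAAA in 12.4%. GC content was 53.6% in the Acta2 window, 58.4% in Vim, 67.2% in Des and 80.0% in Reln, against a median of 52.4% over all windows. A match is a description of these letters only.

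Acta2 was a gene of few reads in these livers, with 24, 37 and 64 counts in WT and 160, 145 and 124 in Hom. WT 3 and Hom 1, the libraries with the most skeletal muscle marker counts (521 and 213, against 24 to 52), were the highest of their groups, and WT 3 lay below every Hom liver. Mean CPM was 2.55 ± 1.31 in WT and 6.26 ± 1.09 in Hom. The log2FC was 1.30 (SE 0.37, edgeR adjusted p = 0.0294), a 2.46-fold difference. This call was the least firm of the 9: the adjusted p was 0.0914 without WT 2, 0.0773 without Hom 1, 0.0715 without Hom 2 and 0.0614 without Hom 3. Without WT 3 and Hom 1 together the log2FC was 1.62 (adjusted p = 0.0200). Acta1, the skeletal muscle actin gene, which resembles Acta2 in its coding sequence, had 93 counts in WT 3 and 47 in Hom 1, against 3 to 9 in the other livers. The actin genes Actg1 and Actb, looked at after their values were seen, had far more reads than Acta2. Actg1 had 2956, 2500 and 2404 counts in WT and 14020, 9856 and 8892 in Hom (log2FC 1.61, edgeR adjusted p = 0.00194). Actb had 12832, 8909 and 9759 in WT and 15237, 17491 and 15915 in Hom (log2FC 0.17, adjusted p = 0.333). The Acta2 counts were not whole numbers in any liver, which RSEM gives where it divides reads between genes. How many reads came from other actin genes, Actg1 and Actb among them, was not tested.

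Tagln encodes transgelin, an actin-binding protein of smooth muscle and myofibroblasts. It had 62, 98 and 43 counts in WT and 321, 263 and 229 in Hom. Mean CPM was 4.13 ± 1.91 in WT and 11.9 ± 2.71 in Hom, with a log2FC of 1.53 (SE 0.33, edgeR adjusted p = 0.0111). Without WT 3 and Hom 1 its log2FC was 1.09 (adjusted p = 0.0438). Tagln overlaps Pcsk7 on the opposite strand, and whether the counting used strand was not given. Pcsk7 was lower in Hom livers (log2FC -0.52, adjusted p = 0.00223).

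Vim encodes vimentin, the intermediate filament protein of mesenchymal cells, and was the most abundant member. It had 551, 334 and 567 counts in WT and 2102, 1922 and 1621 in Hom. The lowest Hom liver held more than any WT liver by a wide margin. Mean CPM was 29.0 ± 6.88 in WT and 82.4 ± 14.4 in Hom, with a log2FC of 1.51 (SE 0.20, edgeR adjusted p = 0.00195).

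Des encodes desmin, the muscle-type filament protein that marks rodent stellate cells. It had 128, 104 and 132 counts in WT and 253, 205 and 212 in Hom. In CPM, Hom livers were at 11.8, 8.45 and 9.14 and WT livers at 7.15, 6.67 and 8.11, so that the groups met closely without overlap. The log2FC was 0.42 (SE 0.17, edgeR unadjusted p = 0.0410, adjusted p = 0.0838). It passed with upper-quartile scaling (0.51, adjusted p = 0.0480) and with library size alone (0.87, adjusted p = 0.00520), and 28.3% of all tested genes had a higher log2FC. The count ratio of Acta2 to Des within a liver was 0.191, 0.359 and 0.487 in WT and 0.633, 0.708 and 0.586 in Hom. Des had more reads than Acta2 in each of the 6 livers. The mean log2 ratio was higher by 0.99 in Hom (exact permutation p = 0.1), and by 0.62 to 1.29 with any 1 liver left out.

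Among 33 tested genes of the contractile apparatus of smooth muscle and myofibroblasts, of 37 listed, 16 rose and 0 fell, with a median log2FC of 0.56. Tpm1, a tropomyosin gene, rose from 34.4 to 98.0 mean CPM (log2FC 1.51, edgeR adjusted p = 0.0003). Tpm4, another tropomyosin, and Myh9, the non-muscle myosin heavy chain, rose by 1.23 and 1.16 on the log2 scale (adjusted p = 0.000369 and 0.000558). Members that rose were in part widely expressed genes of the cytoskeleton, as Myh9 is. Myh11, the smooth muscle myosin heavy chain, which was looked at after its values were seen, did not pass (log2FC 0.12, adjusted p = 0.838). With library size alone 25 rose and 0 fell, and without WT 3 and Hom 1 14 rose and 0 fell. Of 7 tested intermediate filament genes of non-epithelial cells, 2 rose and 0 fell: the linker gene Plec (log2FC 0.72, adjusted p = 0.00246) and the lamin gene Lmna (0.81, adjusted p = 0.00699), and the list's median was 0.72. With library size alone 5 of them rose and 0 fell, with a median of 1.17, and without WT 3 and Hom 1 3 rose and 0 fell.

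**Figure D3:**
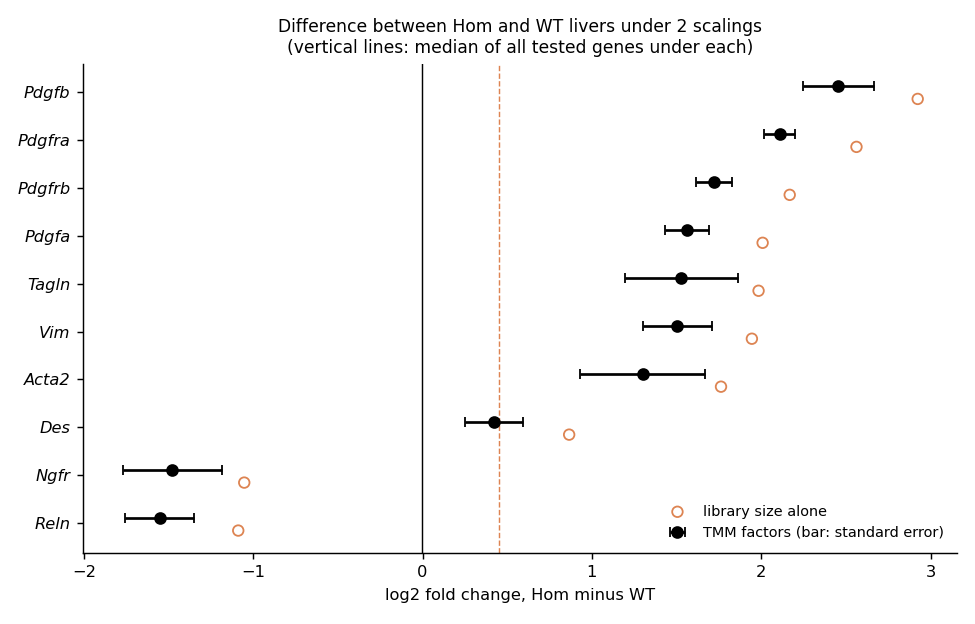
Log2 fold change (Hom against WT) of the 10 genes with SE from the edgeR fit (TMM factors, black), beside the values with library size alone (open circles), and the median of all tested genes under each as a vertical line. Des lies nearest to 0, at 0.42, and Pdgfb highest, at 2.46.

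Reln and Ngfr moved the other way from the remaining members. Reln encodes reelin, a large secreted glycoprotein that stellate cells make. It had 1146, 1093 and 853 counts in WT and 354, 469 and 643 in Hom. WT 3 was the lowest of the WT livers and Hom 3 the highest of the Hom livers, and they did not meet. Mean CPM was 62.2 ± 8.99 in WT and 21.2 ± 5.82 in Hom, with a log2FC of -1.55 (SE 0.21, edgeR adjusted p = 0.00184). Only 332 of the tested genes (2.41%) had a lower log2FC.

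Of 4 tested reelin receptor and adaptor genes, 2 rose and 0 fell, with a median log2FC of 0.33. With library size alone 3 rose and 0 fell, with a median of 0.78, and without WT 3 and Hom 1 2 rose and 0 fell. The adaptor gene Dab1 rose from a low level, 0.359 to 1.03 mean CPM (edgeR adjusted p = 0.0170). Dab2, a related adaptor, rose from 19.2 to 30.9 mean CPM (log2FC 0.69, adjusted p = 0.00282). Vldlr, a reelin receptor gene, was at 4.06 and 2.02 mean CPM and did not pass (log2FC -1.02, adjusted p = 0.133). The WT livers were at 7.20, 1.73 and 3.26 CPM. Over the alternative settings the log2FC of Vldlr went from -1.38 to -0.31, and it passed in 1 of 13. Pafah1b1, the LIS1 gene, had a log2FC of -0.03 (adjusted p = 0.829). Lrp8, the other classical receptor gene, had 2 to 18 counts per liver and was not tested.

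Ngfr, the low-affinity receptor for all neurotrophins, had 191, 102 and 102 counts in WT and 73, 49 and 70 in Hom. WT 2 and WT 3 were alike and WT 1 was well above them, while the highest Hom liver stayed below all 3. Mean CPM was 7.83 ± 2.46 in WT and 2.82 ± 0.715 in Hom, with a log2FC of -1.48 (SE 0.29, edgeR adjusted p = 0.00796). Without WT 3 and Hom 1 it was -1.77 (adjusted p = 0.0176).

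Several other neurotrophin genes rose. Ntrk2, the kinase receptor for BDNF, went from 3.15 ± 0.692 to 56.8 ± 25.4 mean CPM (log2FC 4.17, edgeR adjusted p = 0.000506). Ntrk3, the receptor for neurotrophin-3, went from 0.121 to 2.00 mean CPM (log2FC 3.98, adjusted p = 0.000455). Ntf3, which encodes that ligand, rose by 1.63 on the log2 scale (adjusted p = 0.0233), whereas Bdnf did not pass (0.30, adjusted p = 0.569). The rise of Ntf3 passed in 7 of 13 alternative settings, and not without WT 3 and Hom 1 (edgeR adjusted p = 0.0862). Of the intracellular partners, Bex3 and Ripk2 rose by 1.08 and 0.95 (adjusted p = 0.0136 and 0.00215), and Traf6 and the sortilin gene Sort1 had log2FC of -0.07 and 0.05 (adjusted p = 0.598 and 0.809). Maged1 fell by 0.32 (adjusted p = 0.0187), but had a log2FC of 0.13 with library size alone. In all, 6 of the 10 tested genes of 17 listed rose and 1 fell, with a median of 1.01. With library size alone 7 rose and 0 fell, and without WT 3 and Hom 1 5 rose and 0 fell.

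Levels were compared between genes as deposited TPM, which is per gene length. TPM holds no TMM factors, so that its differences between WT and Hom are not those of the fit. Des, for example, was at 3.49 and 7.14 TPM, against a fitted 1.34-fold rise. Reln was at 7.71 and 4.06 TPM, against a fitted 2.93-fold fall. In WT livers the order of mean TPM was Vim (23.6), Reln (7.71), Pdgfa (4.24), Tagln (3.83), Pdgfrb (3.57), Des (3.49), Ngfr (3.45), Acta2 (1.72), Pdgfra (1.36) and Pdgfb (1.06). From Pdgfa to Ngfr, and from Acta2 to Pdgfb, neighbours overlapped between livers. In Hom livers it was Vim (101.6), Pdgfa (20.9), Pdgfrb (17.8), Tagln (17.0), Pdgfb (10.5), Pdgfra (8.91), Des (7.14), Acta2 (6.33), Reln (4.06) and Ngfr (1.83). There the neighbours Pdgfrb and Tagln, Pdgfb and Pdgfra, and Des and Acta2 overlapped. Reln thus went from the second place to the ninth, and from 14.3% to 2.07% of the summed TPM of the 10 genes.

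**Figure D4:**
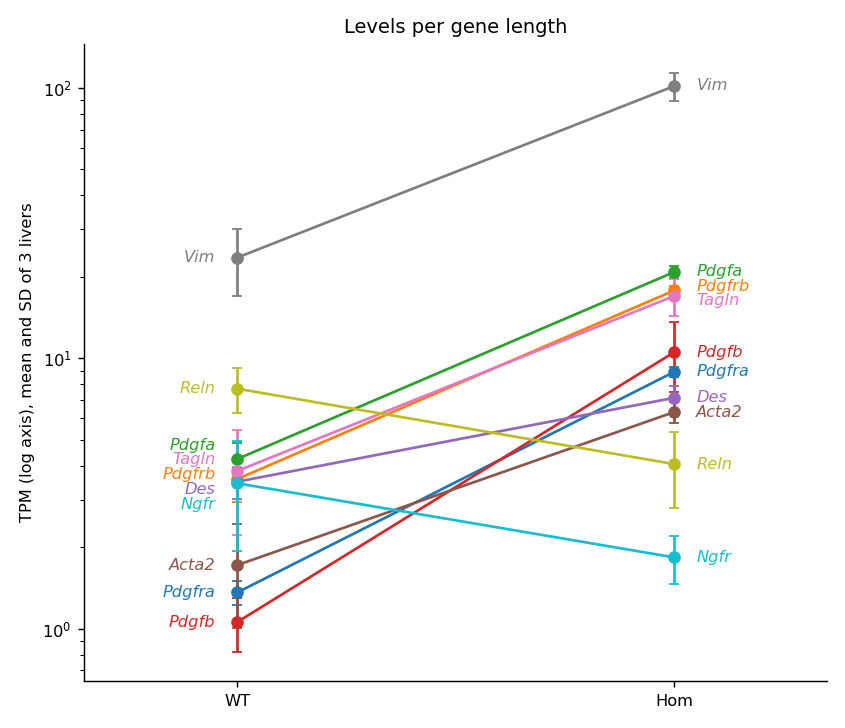
Mean TPM with SD (n = 3 livers, log axis) of each gene in WT and Hom livers, joined by a line per gene. The lines of Reln and Ngfr go down from 7.71 to 4.06 and from 3.45 to 1.83 TPM, while the other 8 lines go up. TPM holds no TMM factors, so the slopes are not the fitted fold changes.

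The Hom livers did not hold the same rank in every gene. Hom 1 was the highest Hom liver in CPM for 8 members, and the lowest for Pdgfb and Reln, where Hom 3 was the highest. Over the 6 livers, the genes of 12864 compared whose log2 CPM followed Acta2 most closely were Hif1a (Pearson r = 0.995), Gm40367 (0.993) and Lrrc61 (0.990). For Pdgfrb they were Lynx1, Neurl1a and Npdc1 (each 0.999), and for Ngfr Smim11 (0.997), Dpp9 (0.995) and Mrpl18 (0.993). These points share 2 groups and their libraries, so that any gene with a like group difference scores high.

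The other marker genes of stellate cells went both ways. Of 24 tested, 8 rose and 5 fell, beside 21.5% called higher and 20.1% lower over all tested genes. Calls in both directions were thus also seen over all genes. The list had a median log2FC of -0.04, which was 0.42 with library size alone, 0.18 without WT 1 and 0.08 without Hom 1. In the fit without both WT 3 and Hom 1, 9 rose and 6 fell. Lum, a collagen-binding proteoglycan gene, rose from 8.89 to 49.6 mean CPM (log2FC 2.48, edgeR adjusted p = 0.000107). Adamtsl2 and Cygb, the cytoglobin gene, rose by 2.18 and 1.80 on the log2 scale (adjusted p = 0.000316 and 0.000498). Colec10, a collectin gene, fell from 28.2 to 1.04 mean CPM (log2FC -4.75, adjusted p = 0.000258). Ecm1 and Angptl6, which encode secreted proteins, fell by 2.30 and 3.30 (adjusted p = 0.000107 and 9.4e-05). Lrat, which makes the retinyl esters stored by quiescent stellate cells, had 289, 186 and 183 counts in WT and 311, 227 and 231 in Hom, and did not pass (log2FC -0.22, adjusted p = 0.447).

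Markers of other cells that can express the members were read in the same way, beside the same 21.5% higher and 20.1% lower over all tested genes. Portal fibroblast and mesothelial markers, 15 tested of 18 listed, had 10 higher and 0 lower with a median log2FC of 1.43, and summed to 33.9 to 206.8 CPM in WT and 121.0 to 192.5 in Hom. The WT upper end was WT 3, where Krt14 alone was at 163.4 CPM, against 5.75 and 12.8 in WT 1 and WT 2. Summed without Krt14, a choice made after its counts were seen, the list was at 28.1 to 43.4 CPM in WT and 113.3 to 155.9 in Hom. Dpt and Cd34 rose by 3.86 and 2.76 on the log2 scale (edgeR adjusted p = 0.000177 and 0.000224). That list read 9 higher and 2 lower without WT 3 and Hom 1. Vascular smooth muscle and pericyte markers, 10 tested of 13, had 2 higher and 1 lower, and summed to 53.9 to 70.3 CPM in WT and 55.6 to 64.9 in Hom. There Smtn rose by 0.68 (adjusted p = 0.0165) and Abcc9 fell by 0.61 (adjusted p = 0.0131), while library size alone gave 3 higher and 0 lower, and leaving out WT 3 and Hom 1 gave 1 and 1. Cholangiocyte markers had 13 of 14 higher and 0 lower with a median of 3.02, and summed to 87.0 to 117.3 CPM in WT and 690.3 to 973 in Hom. Spp1, the osteopontin gene, and the keratin gene Krt7 rose by 3.78 and 2.63. Their part in the members' values was not tested.

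Beside Pdgfb, whose product endothelial cells, platelets and macrophages are known to make, endothelial markers had 0 of 16 higher and 7 lower with a median log2FC of -0.42, summing to 391 to 521.3 CPM in WT and 307.7 to 311.1 in Hom. Kdr, the main VEGF receptor gene, fell by 1.48. With library size alone the endothelial markers read 3 higher and 4 lower with a median of 0.03, and without WT 1 their median was -0.27. Platelet markers, 5 tested of 12, had 1 higher and 1 lower, and summed to 11.2 to 20.7 CPM in WT and 7.63 to 11.7 in Hom. Macrophage markers had 5 of 17 higher and 2 lower, and summed to 374.5 to 899.2 CPM in WT and 697.3 to 919.6 in Hom, with 11 higher and 1 lower under library size alone. The median log2FC of these macrophage markers was 0.78, and 1.27 without WT 1. Within them Ccr2, Trem2 and Cd14 rose by 3.19, 3.31 and 3.33, whereas the Kupffer cell genes Timd4 and Clec4f fell by 2.38 and 1.59. Their part in the rise of Pdgfb was not tested.

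Beside Ngfr, Schwann cell markers, 5 tested of 10, had 1 higher and 0 lower and summed to 111.3 to 159.1 CPM in WT and 94.4 to 170.7 in Hom. Hepatocyte markers had 0 of 20 higher and 12 lower with a median log2FC of -0.69, and summed to 172900 to 207200 CPM in WT and 87110 to 127900 in Hom. With library size alone they read 1 higher and 6 lower. Lymphocyte markers, 8 tested of 13 listed, had 2 higher and 0 lower and summed to 7.18 to 11.7 CPM in WT and 10.7 to 18.2 in Hom. Their median log2FC was 0.89, and 1.48 without WT 1. Of 12 skeletal muscle markers only 2 were tested, and neither was called. No listed marker was at 0 in every liver, and the part of these cell types in the members' values was not tested.

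**Figure D5:**
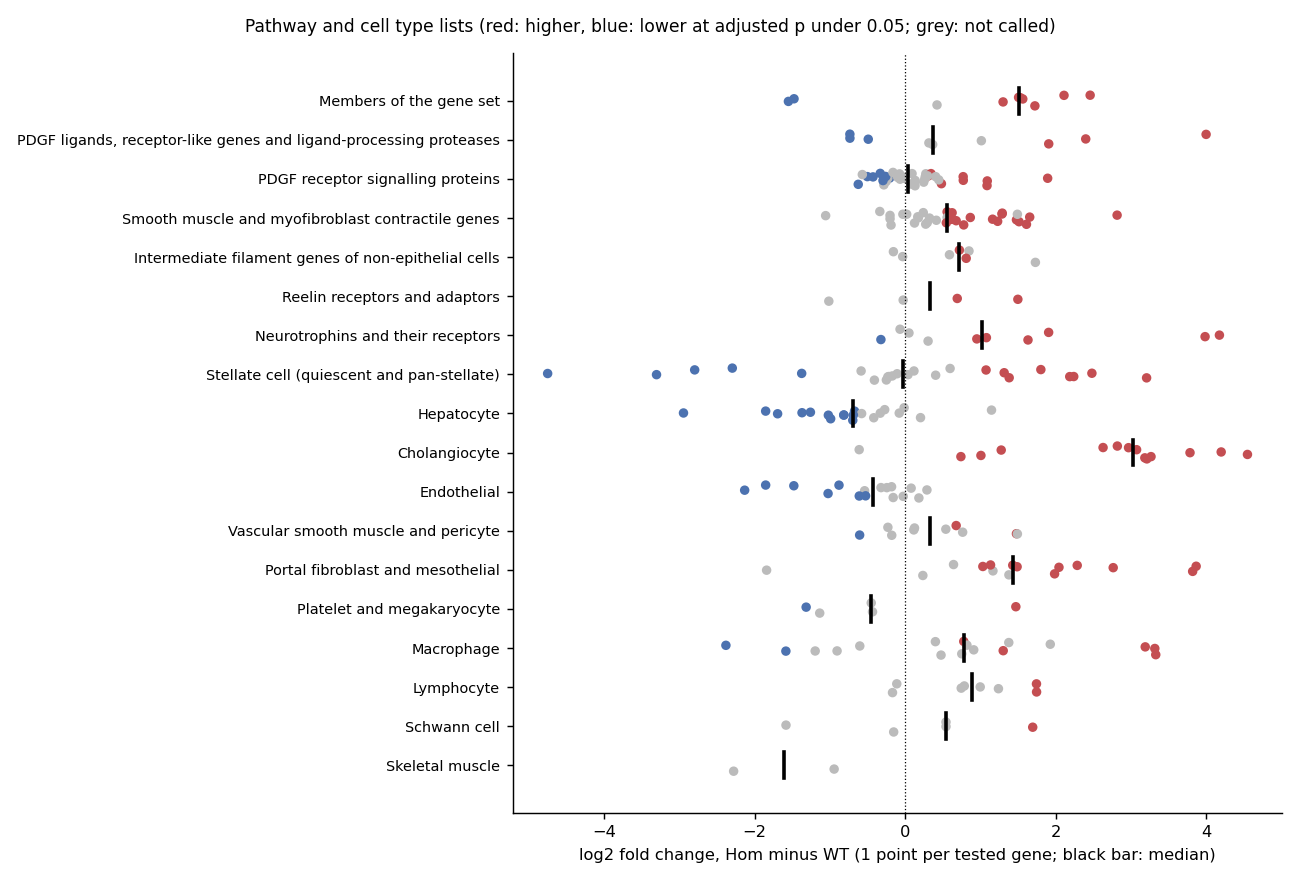
Log2 fold change (Hom against WT) of each tested gene of the 10 members and of 17 pathway and marker lists, with the median as a bar. The cholangiocyte list has the highest median, 3.02, the hepatocyte list lies at -0.69 and the stellate cell list, at -0.04, spans -4.75 to 3.21.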

How the data were processed

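Liver RNA of 3 WT and 3 Hom mice was sequenced on DNBSEQ by BGI Genomics. The submitters' processing notes name HISAT2 2.0.4, Bowtie2 2.2.5, RSEM 1.2.12 and the build mm9. The authors deposited RSEM expected counts and TPM per gene and liver. Their mean columns were not used: the one named for the control group equalled the mean of the Hom livers within 0.01 counts in all 17975 genes. Expected counts were rounded, filtered (filterByExpr), scaled by TMM and tested with edgeR 4.0.16 (glmQLFit, glmQLFTest; R 4.3.3) on group alone, with Benjamini-Hochberg adjustment over 13805 genes at 0.05, after a test on simulated data. TPM served for levels between genes. Ratios within a liver used counts with 0.5 added. DESeq2 1.42.0 and limma-voom 3.58.1 were among the alternatives. The 10 genes and the lists were chosen with earlier results of these data known. Named were all members, all tested genes of the ligand, reelin and neurotrophin lists, and in other lists up to 3 called genes each way with the smallest adjusted p, apart from items that are not reported here. Counts of Acta2, Tagln, Pdgfb and Ngfr were not whole in any liver. Library pairs within a group differed by far more than counting noise (chi-square per degree of freedom 22.3 or more). WT 1 differed from WT 2 and WT 3 by 133.5 and 151.9, against 22.3 between WT 2 and WT 3. Without WT 1, 7 members were called higher and 2 lower. Promoter letters are from RefSeq (GRCm38.p6), for 7 of the 10 genes.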

Additional observations from a re-analysis of the deposited data

How the results depend on the processing

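Of 140 comparisons of a member's log2FC with an alternative setting, 133 kept direction and side of the threshold, none reversed, 5 lost the call (all Acta2) and 2 gained it (both Des). Over all genes, library size alone gave 6574 higher and 642 lower, and a minimum absolute log2FC of 1 gave 1825 and 575. Leaving out 1 liver gave 1767 to 2750 genes lower. Same-numbered WT and Hom livers were different mice, and their deviations had correlations of -0.0786, -0.0394 and -0.0176. Differently numbered livers had -0.194 to 0.214. With 3 livers per group, such values cannot decide whether the numbers pair the livers. With a replicate block, 2383 genes were higher and 2214 lower, and the members read 6 higher and 2 lower, Acta2 being lost (log2FC 1.38, edgeR adjusted p = 0.0581). Without WT 3 and Hom 1, 7 members were higher and 2 lower. Where 2 livers remain in a group, their spread is estimated with that of the other group. Acta2 and Pdgfb had the lowest mean counts in WT among the members, from counts of 24 to 64 and 37 to 44.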
